A study of Mus musculus with 2 samples.

Results

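The nuclear genes of the respiratory chain and the ATP synthase were followed through the epithelium of the embryonic mouse esophagus, in 1 wild-type library and 1 p63-KO library. Members were all genes of the count tables whose symbols start with Nduf followed by a, b, c, s or v, with Uqcr, with Cox4 to Cox8, with Atp5 or with Sdh followed by a, b, c or d. This took 98 of the 32285 genes in the tables. They divide into 37 subunits of complex I, 4 of complex II, 8 of complex III, 17 of complex V (the ATP synthase), 20 genes counted with complex IV and 12 assembly factors, 8 named Ndufaf for complex I and 4 named Sdhaf for complex II. The rule reads gene symbols only.

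Complexes I to IV pass electrons from NADH and succinate to oxygen and pump protons across the inner mitochondrial membrane, and complex V uses the returning protons to make ATP. Most subunits are encoded in the nucleus, and a few core subunits are encoded by mitochondrial DNA. Ionocytes and ciliated cells are known for transport and motility that consume much ATP, and ionocytes are known as cells rich in mitochondria.

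The tissue was epithelium of the esophagus at stage E18.5 from C57BL/6 mice. The control carried the genotype p63-CreER and the knockout p63-CreER/p63-CreER, so both carried the CreER allele at p63, the gene of a transcription factor needed for stratified epithelia, and the knockout carried it on both copies. The labels do not give the number of embryos per library. Single-cell RNA was measured by 3' tag sequencing with unique molecular identifiers (UMIs), and with 1 library per group nothing below could be tested against the spread between animals.

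Cells were kept from 500 genes and 1000 UMIs upwards if mitochondrially encoded UMIs made up no more than 10%, and predicted doublets were removed, which left 5519 wild-type and 2375 p63-KO cells. Of these, 5365 and 1677 were epithelial-like, with medians of 11057 and 25250 UMIs, and 8 barcodes occurred in both libraries. Trp63, the gene of p63, had 302 UMIs per 1e+06 counted (CPM) in wild-type and 118 CPM in p63-KO epithelial-like cells. The labels do not say which exons the knockout lacks, so these 3' tags do not check it, while Krt5, a keratin of basal cells, had 768 and 0.236 CPM. Cells of both libraries held Xist or Y-linked UMIs, so each library contained cells of both sexes.

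Clusters were named from marker genes, with the member genes kept out of the clustering. The wild-type cells gave basal-like, suprabasal-like, superficial-like and proliferating cells and 25 ciliated-like cells. The p63-KO cells gave 157 ionocyte-like cells with 11 of 12 ionocyte markers in at least 25% of cells, 55 ciliated-like cells with 12 of 12 ciliated markers, 235 mucous secretory-like, 347 neuroendocrine-like, 209 proliferating and 674 other epithelial-like cells. UMIs of a class were summed and scaled to CPM, and the intervals given are 95% intervals that cover counting error only. A gene was measured in a comparison when it had at least 5 CPM in either class, and it was counted as higher or lower from a 1.5-fold difference.

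The promoters of the members are shown first, because nuclear respiratory genes are known to share binding motifs for NRF1, GABP, YY1 and the estrogen-related receptors (ERR), and because Esrrg, the gene of one ERR, comes up in the results. RefSeq promoter windows spanned 300 bases (build GRCm38.p6, 250 before to 50 after the annotated start). They were found for 79 of the 98 members, by gene identifier first and otherwise by symbol. The NRF1 letters, GCGCA and GCGC with any 1 base between them, searched on both strands, were in 21 of the 79 windows (26.6%), against 5.19% of the windows of 27025 genes and 7.17% of those of 17492 coding genes. The YY1 letters AAGATGGCG were in 8 windows (10.1%, against 1.64% of all genes and 2.14% of coding genes). The ETS letters CCGGAAGT, which GABP binds, were in 5 (6.33%, against 4.31% and 5.69%), a share near that of coding genes. The ERR letters TCAAGGTCA were in 2 (2.53%, against 0.466% and 0.377%). Beside these, 4 windows are given as the 100 bases before the start, 5′ to 3′ along the gene, with the matching letters in capitals. All 4 genes lie on the minus strand, at chr9:50603850-50603949 for Sdhd, chr2:10080433-10080532 for Atp5c1, chr15:102671048-102671147 for Atp5g2 and chr2:73911327-73911426 for Atp5g3.
Sdhd, NRF1: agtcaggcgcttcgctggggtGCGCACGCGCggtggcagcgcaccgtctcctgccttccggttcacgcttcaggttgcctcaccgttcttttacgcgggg
Atp5c1, NRF1: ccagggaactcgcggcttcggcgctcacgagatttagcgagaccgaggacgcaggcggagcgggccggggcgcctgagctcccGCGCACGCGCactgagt
Atp5g2, NRF1: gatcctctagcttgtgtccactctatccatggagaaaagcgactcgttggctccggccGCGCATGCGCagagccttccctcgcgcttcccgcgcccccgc
Atp5g3, ERR on the opposite strand: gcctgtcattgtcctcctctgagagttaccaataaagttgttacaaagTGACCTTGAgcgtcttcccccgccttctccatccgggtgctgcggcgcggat
Sdhd and Atp5g3 are the 2 members with the ERR letters, and both also hold the NRF1 letters. A match is a run of letters and not a measured site.

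Summed over the members, the ionocyte-like cells stood highest among the epithelial classes and the neuroendocrine-like cells lowest. The members held 31843 CPM in ionocyte-like cells (interval 31706 to 31981). The other p63-KO classes had 21649 CPM in ciliated-like, 21101 in proliferating, 20858 in mucous secretory-like, 19780 in the other epithelial-like and 14454 in neuroendocrine-like cells (14351 to 14557). In wild type the sums ran from 18812 CPM in proliferating and 18665 in basal-like cells through 17799 in suprabasal-like to 16536 in superficial-like and 16385 in ciliated-like cells. The last 2 have overlapping counting intervals (16472 to 16601 and 16092 to 16683). The wild-type classes therefore lay within a narrower span than those of p63-KO.

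**Figure D1:**
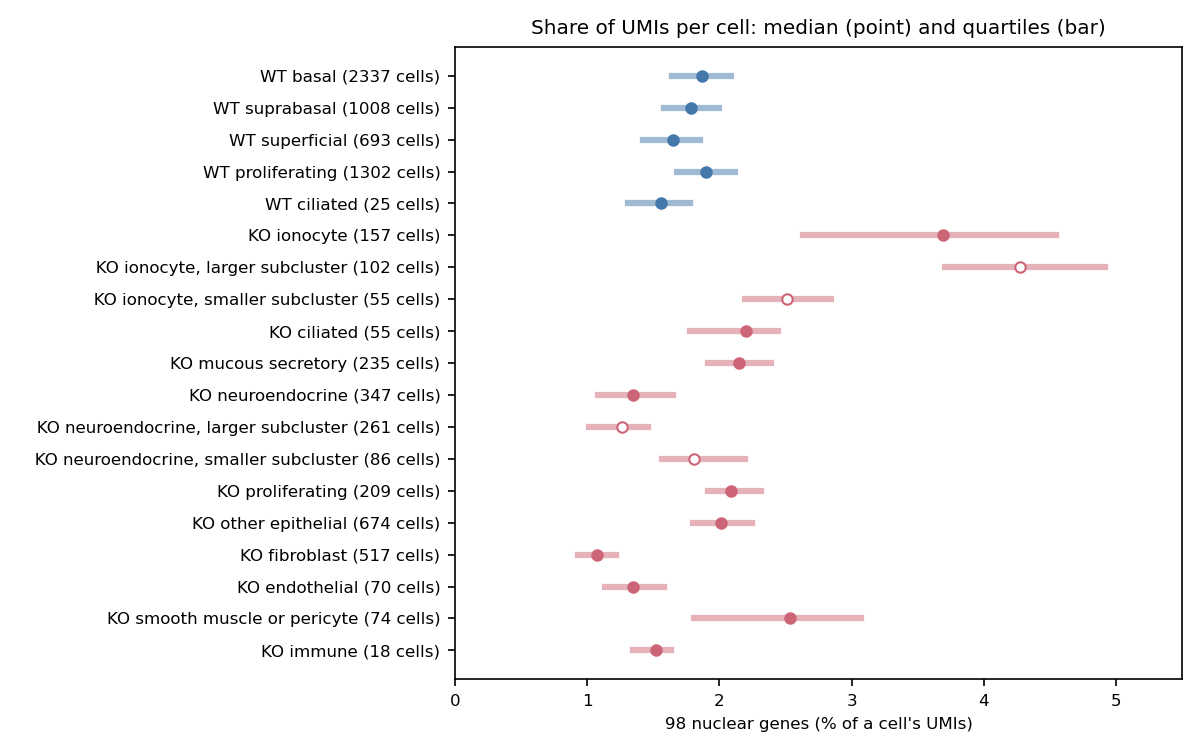
Share of each cell's UMIs that fell on the 98 members, in percent, with the median of each class as a point and the quartiles as a bar, wild type (WT) in blue and p63-KO (KO) in red, and subclusters as open points. The ionocyte-like median lies at 3.69%, with the larger subcluster at 4.27% and the smaller at 2.51%, and the neuroendocrine-like median at 1.35%.

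Members in ionocyte-like cells were compared with the other 1520 p63-KO epithelial-like cells. Of 93 measured members, 57 were higher, against a background of 11.6% of all genes measured, and 0 were lower, against 13.6%. From a 2-fold difference 17 members were higher (background 5.59%). The median log2 ratio was 0.66 over the members and -0.01 over all genes, and the summed level was 1.60-fold higher. Each of the 5 complexes had a positive median, and that of the assembly factors was nearer to 0.

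In complex I, which takes electrons from NADH, 19 of 37 subunits were higher, with a median log2 ratio of 0.59. Ndufab1, the mitochondrial acyl carrier protein, had 321 CPM in ionocyte-like and 152 CPM in the other cells, 2.11-fold higher (2.01 to 2.21). Ndufa5 had 137 and 65.4 CPM, and Ndufs1, the core subunit with the most iron-sulfur clusters, 65.2 and 34.5 CPM. The flavoprotein subunit Ndufv1, where NADH is oxidised, had 64.1 and 46.5 CPM, 1.38-fold higher and so not past 1.5-fold. Ndufa7 stood at 212 and 214 CPM. Complex I thus held both genes near a doubling and genes that were level.

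All 4 subunits of complex II, the succinate dehydrogenase, were higher. The membrane anchor Sdhd had 169 and 72.6 CPM, 2.32-fold higher (2.17 to 2.48), while the catalytic subunit Sdha had 138 and 91.4 CPM, 1.5-fold higher (1.40 to 1.62). Sdhb had 138 and 75.8 CPM and Sdhc 184 and 122 CPM. In complex III, which passes electrons from ubiquinol to cytochrome c, 7 of 8 genes were higher. The Rieske iron-sulfur protein Uqcrfs1 had 269 and 124 CPM, 2.17-fold higher (2.06 to 2.28), and the core protein Uqcrc1 151 and 89.8 CPM.

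In complex IV, the cytochrome c oxidase, 10 of 15 measured genes were higher. Cox5a (chr9:57521274-57532426, plus strand, mm10) had 1202 CPM in ionocyte-like and 502 CPM in the other cells, 2.40-fold higher (2.34 to 2.46). Cox6c had 953 and 433 CPM and Cox7a2 753 and 380 CPM. Cox4i1, the regulatory subunit that joins Cox5a early in assembly, had 1040 and 692 CPM, 1.5-fold higher. Cox7a1, the isoform known from heart and skeletal muscle, had the largest ratio of all members, at 2.97-fold (2.37 to 3.69), from 16.7 and 5.63 CPM. Ndufa4, first assigned to complex I and now counted with complex IV, had 2128 and 1923 CPM, 1.11-fold higher (1.09 to 1.13), and its paralog Ndufa4l2, a gene known to respond to hypoxia, had 205 and 243 CPM.

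Of the 17 ATP synthase genes 14 were higher, with the highest median among the complexes, a log2 ratio of 0.87. Atp5o, of the peripheral stalk, had 596 and 255 CPM, 2.34-fold higher (2.26 to 2.42), and the small membrane subunit gene Atp5mpl 356 and 154 CPM. The catalytic subunit Atp5b (chr10:128083273-128090391, plus strand) had 927 and 458 CPM and Atp5a1 845 and 513 CPM. The 3 genes of the c subunit, which forms the rotor ring from one mature protein, differed from each other. Atp5g1 had 825 and 451 CPM and Atp5g3 700 and 350 CPM, whereas Atp5g2 had 452 and 488 CPM, 0.925-fold (0.891 to 0.961). The promoter window of Atp5g2 printed above holds the NRF1 letters, as that of Sdhd does. Over all members with a window, the median log2 ratio in ionocyte-like cells was 0.74 with the NRF1 letters and 0.58 without them. The same pair was 0.54 and 0.64 for the YY1 letters, 0.59 and 0.65 for the ETS letters and, with only 2 genes, 1.10 and 0.60 for the ERR letters.

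Among the 12 assembly factors 3 were higher, with a median log2 ratio of 0.25. Ndufaf4, a complex I assembly factor, had 66.2 and 26.7 CPM, 2.48-fold higher (2.23 to 2.76), Ndufaf5 21.4 and 10.1 CPM and Ndufaf6 17.7 and 9.64 CPM. Sdhaf1 and Sdhaf4 had log2 ratios of 0.11 and 0.14.

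The ionocyte-like class consisted of 2 subclusters that differed in these genes. The larger, of 102 cells with a median of 23468 UMIs, had 43687 CPM of members, 2.19-fold above the other cells, and 79 of 93 members were higher there (background 22.8%) and 0 lower (background 25%). The smaller, of 55 cells with a median of 68252 UMIs, had 24110 CPM, 1.21-fold above, 4 members were higher (background 5.53%) and 0 lower (background 8.2%). Cox5a stood at 1846 CPM in the larger and 782 CPM in the smaller subcluster, and Atp5b at 1441 and 592 CPM, against 458 CPM for Atp5b in the other cells. Per cell, members took a median of 4.27% of UMIs in the larger subcluster (2.21 to 7.09%) and 2.51% in the smaller (1.58 to 3.78%). In the other epithelial-like cells the median was 1.97% and the 95th percentile 2.70%, and 96.1% of the cells of the larger and 32.7% of those of the smaller subcluster lay above that percentile.

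**Figure D2:**
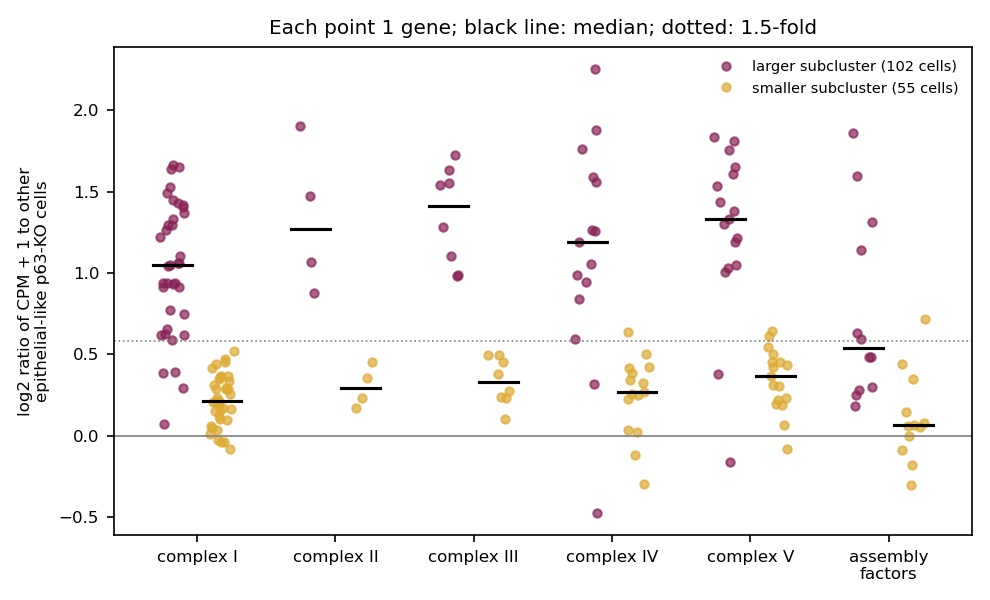
Log2 ratio of each measured member in the larger and in the smaller ionocyte-like subcluster to the other p63-KO epithelial-like cells, 1 point per gene, by complex, with medians as black lines and 1.5-fold as a dotted line. In the larger subcluster the medians lie at 1.05 for complex I, 1.27 for II, 1.41 for III, 1.19 for IV, 1.33 for V and 0.54 for the assembly factors, and those of the smaller lie below 1.5-fold.

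Both subclusters had 11 of 12 ionocyte markers. The smaller also held values of other cells: Krt15 at 4028 CPM against 195 in the larger, Foxi1, the ionocyte transcription factor, at 202 against 778, and a median doublet score of 0.8 against 0.18. Both Xist and Y-linked UMIs were in 20 of its 55 cells and in 16 of 102 of the larger. The part of mixed droplets in the difference between the subclusters was not tested. Among cells of 5000 to 20000 UMIs only, which left 36 ionocyte-like cells, the summed members of the class were 2.43-fold above the other cells. Those 521 other cells held 291 neuroendocrine-like cells, against 347 of 1520 without this depth range. The part of that shift in the fold was not tested. The larger subcluster also had 7 of 10 proliferation markers at least 2-fold higher, and their part in its level of members was not tested. Proliferating cells of p63-KO had 21101 CPM of members.

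Lists of related genes were set beside the members in ionocyte-like cells, with the same background of 11.6% of genes higher and 13.6% lower. Of 25 measured genes of the citric acid cycle and pyruvate entry 18 were higher and 0 lower (median log2 ratio 0.70), with Idh3a at 160 and 52.3 CPM. Glycolysis had 14 of 19 higher and 2 lower (median 1.09), with Ldhb, a lactate dehydrogenase subunit, at 456 and 40.1 CPM. Cycs, the cytochrome c gene, had 540 and 128 CPM, 4.23-fold higher, more than any member gene. The vacuolar ATPase, a proton pump, had 13 of 21 higher and 1 lower, and 4 of its genes had served as markers to name the class. Mitochondrial ribosomal proteins had 11 of 78 higher, a share near that background, and a median of 0.23. The 13 mitochondrially encoded subunits had 3 higher and a median of 0.40. The cytosolic ribosomal proteins, a list added after the values were seen, had a median of -0.33.

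**Figure D3:**
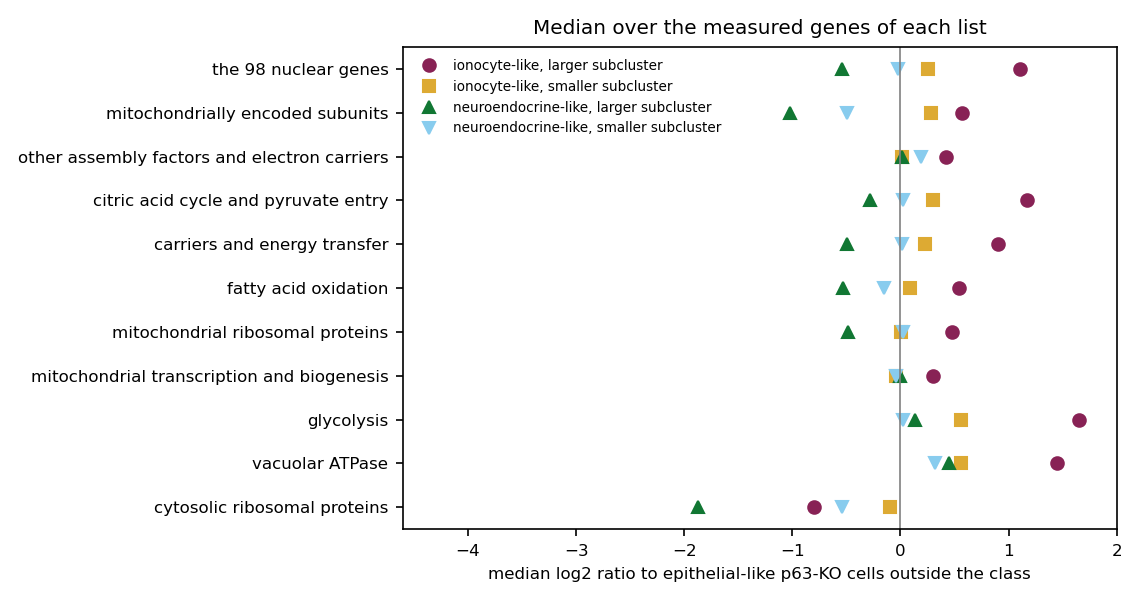
Median log2 ratio over the measured genes of each list, for the larger and smaller subclusters of the ionocyte-like and neuroendocrine-like classes, each against the p63-KO epithelial-like cells outside the class. In the larger ionocyte-like subcluster the members lie at 1.11, glycolysis at 1.65 and mitochondrial ribosomal proteins at 0.48, and in the larger neuroendocrine-like subcluster the members lie at -0.54.

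Esrrg had 782 CPM in ionocyte-like and 108 CPM in the other cells, and its coactivator Ppargc1a 376 and 84.4 CPM. Of the 20 measured genes of mitochondrial transcription and biogenesis, which hold both, 5 were higher (background 11.6%), with a median log2 ratio of 0.03. Over all epithelial-like cells Esrrg had 169 CPM in p63-KO and 17.1 CPM in wild type, and Ppargc1a 111 and 9.43 CPM. The p63-KO epithelial classes other than ionocyte-like had 64.3 to 242 CPM of Esrrg, with 194 CPM in neuroendocrine-like cells. Esrrg was also high in wild-type ciliated-like cells, at 225 CPM against 14.9 CPM in the other wild-type epithelial-like cells. In these ciliated-like cells the summed members were 1.10-fold lower. The part of Esrrg in the level of the members was not tested.

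Because cells above 10% mitochondrially encoded UMIs were left out, the cells removed by that limit were also counted. Of 131 such p63-KO barcodes that met the limits on genes and UMIs, 38 held at least 2 Foxi1 UMIs (29.0%, exact binomial interval 21.4 to 37.6%), against 251 of the 2422 barcodes that passed the limits (10.4%). In wild type the same count was 0 of 103 removed barcodes (exact upper limit 3.52%) and 2 of 5787 that passed. With the limit at 20% the ionocyte-like class held 192 cells and its summed members were 1.61-fold above the other cells.

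Nuclear and mitochondrially encoded subunits did not keep one ratio across classes. Mitochondrially encoded subunits held 32336 CPM in wild-type basal-like, 50304 CPM in other p63-KO epithelial-like and 63823 CPM in ionocyte-like cells. The nuclear members divided by the mitochondrially encoded sum gave 0.577, 0.393 and 0.499 in these classes. It was 0.387 in ciliated-like, 0.375 in mucous secretory-like and 0.480 in neuroendocrine-like cells of p63-KO, and 0.515 in superficial-like and 0.480 in ciliated-like cells of wild type. Among the kept cells, the ionocyte-like cells thus lay above the other p63-KO epithelial-like cells in both sums, and more so in the nuclear one. The limit on mitochondrially encoded UMIs per cell bounds the mitochondrially encoded sum from above, but not the nuclear sum. Removed p63-KO barcodes reached the Foxi1 count given above more often than those that passed, so the limit may fall more on ionocyte-like cells. The part of the limit in these ratios was not tested.

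**Figure D4:**
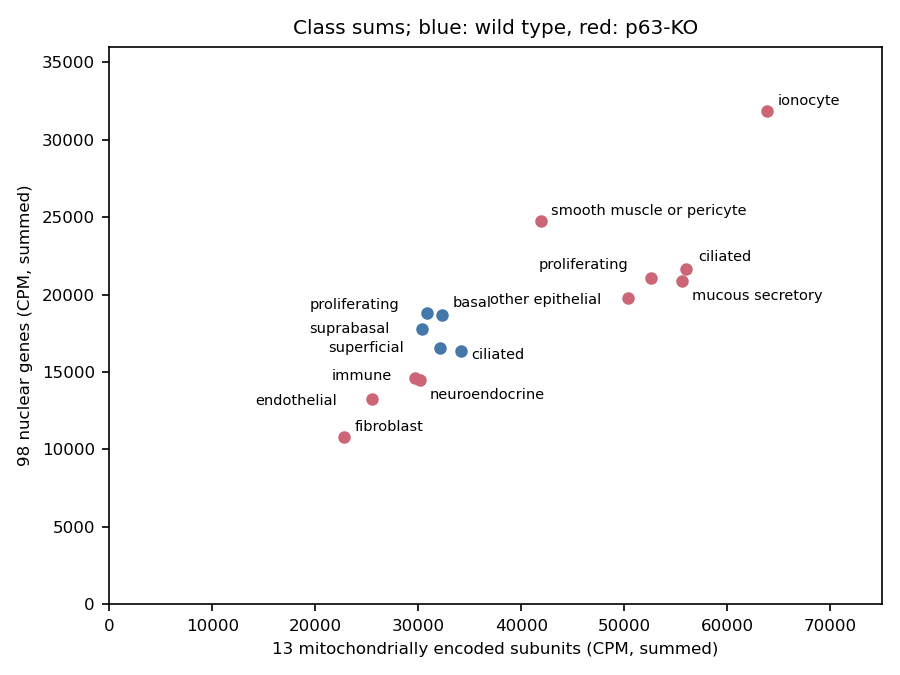
Summed CPM of the mitochondrially encoded subunits (horizontal) against summed CPM of the nuclear members (vertical), 1 point per class of at least 15 cells, wild type in blue and p63-KO in red. The ionocyte-like class lies at 63823 and 31843 CPM, wild-type basal-like cells at 32336 and 18665.

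In wild type, 693 superficial-like cells, named for the outermost layer, were compared with basal-like cells. The name depended on the processing. With predicted doublets kept 0 cells carried it, and with resolution 1 within the epithelial-like cells 305 did. Of 93 measured members 3 were higher (background 17.2%) and 24 lower (background 45%), with a median log2 ratio of -0.37 against -0.45 over all genes. The summed subunits of complex I stood at 4897 CPM in basal-like and 3897 CPM in superficial-like cells, those of complex II at 377 and 244 CPM and those of complex V at 5676 and 4616 CPM. The summed genes counted with complex IV went the other way, with 5656 and 6139 CPM. That direction rested on Ndufa4 alone, since without it the sum was 4974 and 4499 CPM.

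Ndufa4 (chr6:11900292-11907497, minus strand) had 682 CPM in basal-like, 768 CPM in suprabasal-like and 1640 CPM in superficial-like cells, 2.41-fold higher in the last than in the first (2.36 to 2.45). Ndufv3, a small subunit of the NADH-oxidising part of complex I, had 130 and 80.4 CPM in superficial-like and basal-like cells, and Cox7a1 9.89 and 1.91 CPM. On the other side, Uqcrc1 (chr9:108936633-108949623, plus strand) had 143, 96.4 and 58.5 CPM from basal-like over suprabasal-like to superficial-like cells. Cox6b2 (chr7:4751792-4753094, minus strand), the paralog of Cox6b1 known from testis, had 28.6, 8.16 and 4.26 CPM and was 6.72-fold lower in superficial-like cells (5.21 to 8.82). Ndufa4l2 (chr10:127514967-127517154, plus strand) was highest in the middle layer, with 454, 572 and 286 CPM, but its log2 ratio of superficial-like to basal-like cells, -0.66, was 0.036 and 0.10 with the mitochondrial limit at 5% and 20%, where fewer cells were named superficial-like (412 and 505 instead of 693). It overlaps the opposite-strand gene Shmt2 by 32 bases, and the use of strand in the counting is not stated in the labels.

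Of the 12 assembly factors 6 were lower in superficial-like cells, with a median log2 ratio of -0.77, or -0.45 without the 2 that reached 5 CPM in one class only. Ndufaf4 had 46.7, 29.7 and 16.3 CPM from basal-like to superficial-like, and Ndufaf6 24.0 and 4.85 CPM in the outer pair of that order. All 10 core subunits chosen for every comparison had a negative log2 ratio, from -0.23 for Cox5a to -1.27 for Uqcrc1. The median over all measured genes was itself -0.45, and the share of all genes with a negative ratio is not given here. The shared sign is therefore no result about the core subunits alone. Ndufs1 had 50.2 CPM in basal-like and 26.4 in superficial-like cells, Atp5b 462 and 310 CPM, and Cox5a 512 and 438 CPM. Beside the background of 45% of all genes lower, mitochondrial ribosomal proteins were lower for 41 of 78 genes and the citric acid cycle list for 14 of 25, so these shares, like that of the assembly factors, lay near the background. Of 17 vacuolar ATPase genes 12 were higher (background 17.2%) and 0 lower.

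Suprabasal-like cells lay between the layers, with 1 member higher (background 13.7%) and 2 lower (background 22.3%) than in basal-like cells. In proliferating against basal-like cells of wild type, 0 of 92 members were higher (background 7.17%) and 0 lower (background 3.41%), with a median log2 ratio of -0.01 and a summed level 1.01-fold that of basal-like cells.

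Ciliated-like cells were compared with the other epithelial-like cells of their own library. In wild type 7 of 92 members were higher (background 30.3%) and 22 lower (background 26%), with a median log2 ratio of -0.24. In p63-KO 5 of 93 were higher (background 20.2%) and 3 lower (background 12.4%), with a median of 0.03. The median doublet score of ciliated-like cells was 0.78 in wild type and 0.74 in p63-KO. Both Xist and Y-linked UMIs were in 4 of 25 and 20 of 55 of these cells. The part of mixed droplets in the ciliated-like values was not tested. Single assembly factors and a complex IV paralog had the largest ratios in both libraries, but the 12 assembly factors did not move as a group. In wild type 3 of them were higher and 5 lower. Their median log2 ratio was -0.30, or 0.009 without the 2 that reached 5 CPM in one class only. In p63-KO 4 of the 12 were higher and 2 lower (median 0.15).

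Ndufaf3 (chr9:108565537-108567434, minus strand), a complex I assembly factor that partners with Ndufaf4, had 207 CPM in wild-type ciliated-like and 15.2 CPM in the other cells, 13.6-fold higher (11.4 to 16.2). The p63-KO values were 109 and 19.0 CPM, a 5.75-fold difference (5.10 to 6.47). Its partner Ndufaf4 went the other way in wild type, with 8.28 and 36.5 CPM. Ndufaf3 overlaps the opposite-strand gene Impdh2 by 48 bases, and reads shared between them were not tested. Impdh2 had 51.1 CPM in wild-type ciliated-like cells and 43.1 to 155 CPM in the other wild-type epithelial classes.

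Cox6b2 had 153 CPM in wild-type ciliated-like and 22.1 CPM in the other cells, 6.93-fold higher, and in p63-KO it had 98.8 and 9.34 CPM (10.6-fold higher, interval 9.23 to 12.1). Among cells of 5000 to 20000 UMIs, which left 5 ciliated-like cells in p63-KO, its log2 ratio there was -3.64. Fibroblasts express Cox6b2 too, at 49.0 CPM in the fibroblast-like cells of p63-KO. Fibroblast markers summed to 1182 CPM in p63-KO ciliated-like cells, with 7 of 8 in at least 25% of cells, against 4.14 CPM in wild-type ciliated-like cells, with 6 of 8 at 0, and their part in the p63-KO value was not tested. Ndufaf2, an assembly chaperone of complex I, had 121.5 and 44.9 CPM in wild type and 82.2 and 35.3 CPM in p63-KO, and Ndufaf7, another assembly factor of complex I, 66.3 and 22.0 CPM and 31.4 and 17.7 CPM. These 4 genes kept their direction in both libraries.

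Of the 10 core subunits, 3 were lower in wild-type ciliated-like cells (background 26%), a share near the background. These were Uqcrc1 at 49.7 and 115 CPM, Ndufv1 at 30.4 and 48.3 CPM and Atp5a1 at 347 and 523 CPM. The wild-type class had 25 cells, so its values carry wide counting intervals. Between libraries, 24 of 92 members were higher in p63-KO ciliated-like cells than in wild-type ones (background 21.6%) and 3 lower (background 22.5%), and Ndufaf7, Ndufaf3 and Cox6b2 were the 3 lower.

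**Figure D5:**
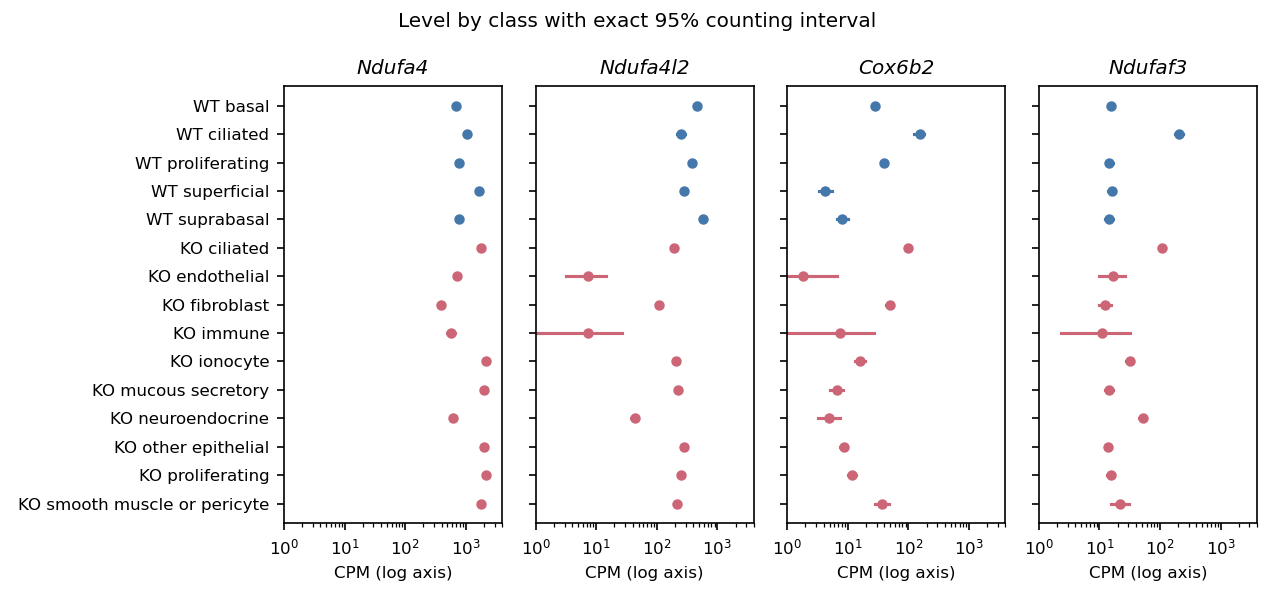
CPM of Ndufa4, Ndufa4l2, Cox6b2 and Ndufaf3 in each class on a log axis, with exact 95% counting intervals, cut at the axis where they fall below 1 CPM, wild type (WT) in blue and p63-KO (KO) in red. Cox6b2 and Ndufaf3 are highest in ciliated-like cells of both libraries, and Ndufa4 stands at 607 CPM in neuroendocrine-like cells against 1760 to 2128 CPM in the other epithelial classes of p63-KO.

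Neuroendocrine-like cells had the lowest summed members, 1.49-fold below the other p63-KO epithelial-like cells. Of 93 members 2 were higher (background 33.3%) and 28 lower (background 23%), with a median log2 ratio of -0.38 against 0.16 over all genes. Complex IV had 11 lower genes and a median of -0.70, complex V 9 and -0.60, and complex I 4 and -0.23. Ndufa4 had 607 and 2045 CPM, 3.37-fold lower (3.25 to 3.49), and Ndufa4l2 43.1 and 255 CPM, 5.93-fold lower (5.20 to 6.79), so the 2 paralogs were the lowest members together. Higher were Sdhaf4, an assembly factor of complex II, at 97.3 and 39.3 CPM, and Ndufaf3 at 51.5 and 20.8 CPM. The core gene Ndufs1 had a log2 ratio of 0.34, whereas Cox5a had -0.72 and Atp5a1 -0.81.

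Of the 2 neuroendocrine-like subclusters, the one of 261 cells had 12351 CPM of members, with 2 higher (background 35.6%) and 41 lower genes (background 26.2%). The one of 86 cells, led by Gzma, had 19543 CPM, with 3 higher (background 27.1%) and 4 lower genes (background 19.2%). Ndufa4 was lower in both, at 400 and 1108 CPM. The smaller had Krt15 at 1530 CPM against 105 in the larger, Foxi1 at 49.1 against 1.08, and a median doublet score of 0.44 against 0.22. Both Xist and Y-linked UMIs were in 7 of its 86 cells and in 19 of 261 of the larger. The part of mixed droplets or of other cell types in the difference between these subclusters was not tested. Cytosolic ribosomal protein genes were lower for all 80 in the neuroendocrine-like class, with a median of -1.36, and mitochondrially encoded subunits had a median of -0.85.

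Mucous secretory-like cells, by contrast, differed little from the other p63-KO epithelial-like cells: 0 of 93 members were higher (background 4.37%) and 2 lower (background 14.6%), and the summed level was 0.992-fold. These were Cox6b2, at 6.55 and 14.6 CPM, and Ndufaf3, at 14.6 and 24.6 CPM.

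All epithelial-like cells of p63-KO were set against all those of wild type, a comparison of libraries whose cell types differ. Of 93 members 6 were higher in p63-KO (background 23.1%) and 3 lower (background 18.4%), and the median log2 ratio was 0.06. Ndufa4 had 1941 and 939 CPM, 2.07-fold higher, and Ndufa1 (chrX:37187588-37191163, minus strand), a small X-linked subunit of complex I, 108 and 53.4 CPM. Ndufb8 had 294 and 177 CPM, Uqcr10 312 and 195 CPM, Cox8a 1096 and 691 CPM and Sdhd 81.2 and 52.4 CPM. Lower were Ndufa4l2 at 240.0 and 417 CPM, Cox6b2 at 13.4 and 23.5 CPM and Ndufaf6 at 10.4 and 17.4 CPM. Mitochondrially encoded subunits were higher for 8 of 13 genes, with a summed level 1.63-fold above wild type, against 1.16-fold for the nuclear members. Without Ndufa4 the nuclear sum was 19061 CPM in p63-KO and 17102 CPM in wild type. Depth and the library cannot be told apart from genotype here.

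Of the tissue isoforms among the paralogs, 5 were rare in the epithelium. Cox6a2 and Cox8b had 0 UMIs in every class, Cox8c had 2 in all, and with Cox7b2 and Cox4i2 they were the 5 members not measured in any epithelial comparison. Cox4i2, the alternative to Cox4i1, stood at 62.7 CPM in smooth muscle or pericyte-like cells and at most 1.39 CPM in the epithelial classes.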

How the data were processed

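Cells from esophageal epithelium, with the muscle layer removed and the rest dissociated with dispase and trypsin, were loaded on the 10x Genomics 3' platform, per the labels' protocols. The deposited values are raw UMI counts per gene and barcode, which the authors made with Cell Ranger 7.1.0 on mm10, per the submitters' processing notes. How cells were called and how introns, strand and multi-mapping reads were treated is not given in the sources used here. Many members have processed pseudogene copies, and 45 overlap another gene model, so their counts are uncertain where reads could be shared. Some genes named above overlap a protein-coding gene model on the same strand. Cox4i1 overlaps Gm20388 by 5986 bases, Ndufb8 overlaps Gm20538 by 4260 and Atp5o a second Atp5o model by 1769. Reads shared between these models were not tested.

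The tables held 6034 wild-type and 2821 p63-KO barcodes with 76472445 and 86504624 UMIs. Barcodes from 500 genes and 1000 UMIs upwards, with mitochondrially encoded UMIs up to 10%, were kept (5787 and 2422). Simulated doublets scored each cell, and 268 and 47 cells were removed (0.8% per 1000 cells). Cells were clustered with the Leiden method on 2000 variable genes, without the members and related lists (30 principal components, 20 neighbours, resolution 1, then 0.6 within the epithelial-like cells), and named from markers. Low-depth clusters of 143 and 19 cells stayed unnamed and were not used. Counts were summed per class and compared as log2 of CPM plus 1; fold values are ratios of CPM. Exact Poisson and conditional binomial 95% intervals were used, and no test was possible with 1 library per group. Genes were named by rule: up to 6 highest and 6 lowest members with at least 20 CPM per comparison, 10 core subunits, all paralog groups and up to 3 genes per related list; other genes named were chosen after their values were seen. The members and lists were chosen with earlier results of these data known. Alternatives changed 1 choice at a time. Scripts were tested on simulated data. Python 3.11.15, numpy 2.4.6, scipy 1.17.1, scikit-learn 1.9.0 and leidenalg 0.10.2 were used.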

Additional observations from a re-analysis of the deposited data

Results flagged for a closer look

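Among p63-KO barcodes outside the kept cells, those that met the limits on genes and UMIs but had over 10% mitochondrially encoded UMIs held at least 2 Foxi1 UMIs in 38 of 131 (29.0%, exact binomial interval 21.4 to 37.6%), a signal in data that the comparisons do not use. In the control library the count was 0 of 103 (exact upper limit 3.52%). The removed p63-KO barcodes had a median of 6279 UMIs and 26259 CPM of the respiratory chain and ATP synthase genes. Among those between 10 and 20% the share was 35 of 84 (41.7%, 31.0 to 52.9%).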

How the results depend on the processing

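No paired analysis was possible because each group has 1 library, and for the same reason no replicate could be left out. Of 161 alternative counts of members past 1.5-fold, 140 were within 1.5 times of the count reported and 21 were not. The cause was not tested. The share of all genes past 1.5-fold under each alternative is not given here. The counts below are therefore not set beside a background and are no result about the members alone. In ionocyte-like cells the count of higher members was 4 with the smaller subcluster alone, and over all 18 alternatives it ran from 4 to 82, the median log2 ratio from 0.25 to 1.19 and the summed fold from 1.21 to 2.43, none with the other sign. With cells of 5000 to 20000 UMIs only, which left 5 ciliated-like cells in p63-KO and 6 in wild type, the counts were 24 higher in p63-KO ciliated-like, 52 lower in wild-type ciliated-like, 58 higher between the ciliated-like cells of the libraries, 54 lower in neuroendocrine-like and 4 lower in mucous secretory-like cells, and Cox6b2 in p63-KO ciliated-like cells had a log2 ratio of -3.64. Lower members in neuroendocrine-like cells numbered 46 with Y-linked cells only, 15 with doublets kept and 4 with the smaller subcluster alone. Higher members in p63-KO ciliated-like cells numbered 8 with every cell weighted equally and 11 at a limit of 5% mitochondrial UMIs. Between ciliated-like cells of the libraries they numbered 15 with Xist cells only and 15 without cells holding both sexes' genes. With the members among the variable genes, 14 were lower in wild-type ciliated-like and 4 in mucous secretory-like cells. Mucous secretory-like cells had 1 lower when measured from 20 CPM, and proliferating cells 1 lower when measured from 1 CPM. Suprabasal-like cells had 5 lower with Xist cells only, 6 with doublets kept, and 1 at limits of 5% and 20% mitochondrial UMIs each. At those limits Ndufa4l2 in superficial-like cells had log2 ratios of 0.036 and 0.10. Y-linked cells alone were not run for ciliated-like cells, since too few cells carried the name. Doublets kept was not run for superficial-like cells, since 0 cells carried that name and 1495 were named suprabasal-like.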

Other observations

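Other cell classes of the p63-KO library, which entered no comparison, also differed in the level of the respiratory chain and ATP synthase genes. Smooth muscle or pericyte-like cells (74 cells) had 24759 CPM of members, endothelial-like cells (70) 13246 CPM and fibroblast-like cells (517) 10766 CPM. The nuclear members divided by the mitochondrially encoded subunits gave 0.591 in smooth muscle or pericyte-like cells, against 0.393 in the other epithelial-like cells. Cox6b2 had 37.1 CPM in smooth muscle or pericyte-like cells.

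In superficial-like cells of wild type, 3 of 18 fatty acid oxidation genes were higher than in basal-like cells (background 17.2%) and 5 lower (background 45%). The share higher thus lay near the background. Their median log2 ratio was 0.14, against -0.45 over all genes. Acadl, a long-chain acyl-CoA dehydrogenase, had 277 CPM against 55.8 in basal-like cells and Acadm, which acts on medium chains, 263 against 87.0 CPM, whereas Acads, which acts on short chains, had 7.86 against 22.9 CPM. Slc25a4, an ADP/ATP carrier, had 87.2 against 304 CPM, and the coactivator gene Ppargc1b 4.98 against 27.5 CPM. In wild-type ciliated-like cells Chchd10, a mitochondrial protein of the intermembrane space, had 623 CPM against 72.5 in the other epithelial-like cells.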
